A study of Brassica napus with 12 samples.

Results

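WRKY proteins are plant transcription factors that bind the W-box, a short motif in the promoters of many defence and senescence genes. They are sorted into group I, with a pair of WRKY domains, groups IIa to IIe, and group III, by the number and type of their zinc fingers and by sequence likeness. In Arabidopsis several of them are switched on within hours by wounding, microbes, salicylic acid or jasmonate, act downstream of MAP kinases, bind VQ proteins and control each other's genes. The family was followed here in leaves of oilseed rape, Brassica napus, an allotetraploid crop that carries an A and a C subgenome and so holds several loci for most Arabidopsis genes.

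WRKY loci were those to which the deposited annotation gave a name of WRKY followed by a digit. There were 301 of them among 101040 loci, matched to 66 Arabidopsis WRKY genes. Of these, 171 loci of 50 genes had at least 1 FPKM (fragments mapped to a locus, relative to its length and to the size of the library) in 2 or more libraries and were tested, among 49701 tested loci in all, and the other 130 fell under this minimum. The tested loci nearest to the minimum were BnaA03g04160D (WRKY75), with a second highest value of 1.05 FPKM, and BnaA06g29220D (WRKY74), with 1.07 FPKM. The nearest loci outside it were BnaA08g24160D (WRKY4), with 0.985 FPKM, and BnaC07g27510D (WRKY74), with 0.979 FPKM.

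The 12 RNA-Seq libraries came from true leaves of 21-day-old B. napus of genotype RV31, in 6 groups of 2 libraries that the labels number 41 and 42. UV-B plants received 3 µmol m-2 s-1 of UV-B for 4 h. Herbivory plants carried larvae of Plutella xylostella, the diamondback moth, for 1 h and were harvested 3 h later according to the design description, and the damaged leaf tissue was sampled. MeJA plants were sprayed with 4 mL of 100 µM methyl jasmonate, the volatile form of the wound hormone jasmonic acid, in ethanol with the wetting agent UN65. The ethanol and UN65 plants received 4 mL of 0.01% ethanol and 0.01% UN65, and the water plants 4 mL of distilled water, all harvested after 4 h. White light plants stood under 70 µmol m-2 s-1 of white light without UV-B. By the study's methods, sprayed and herbivory plants were kept under less white light than the white light plants, so that the comparisons of herbivory and of water with white light also differ in light. Those methods place the herbivory harvest later after the larvae were taken off than that description does. They also describe pooling RNA of independent replicates within a treatment, and whether each labelled library is such a pool is not clear. The p-values below therefore measure the spread between libraries, which may be technical.

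Values are scaled FPKM, for which the ratios of a library's loci to the mean over libraries were taken and the library was divided by their median. A locus was called where limma's moderated test over all 12 libraries gave a Benjamini-Hochberg adjusted p under 0.05 and the log2 fold change of scaled FPKM + 1 was at least 1 in size. Fold changes on this scale understate the change of weakly expressed loci. White light is shared by 3 of the comparisons and water by 4, so comparisons with the same control are not independent. Reads of near-identical A and C copies may have been divided between them in counting. In bulk leaves, fewer cells of a type and less RNA per cell cannot be told apart. Leaf mesophyll marker genes summed to between 4869 and 24453 scaled FPKM over the libraries, and root and flower markers to at most 1.59 and 1.69. Read depth is not given, but steps of whole reads at weak loci placed 9 libraries at 59.2 to 87.8% of the depth of herbivory replicate 42, and no steps were found in UV-B replicate 41 and in ethanol and UN65 replicate 41.

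The family as a whole was modestly expressed. Mean levels of the tested loci over the 12 libraries lay between 0.29 and 20.9 scaled FPKM with a median of 2.25, and 46 loci averaged at least 5. The highest mean was that of the WRKY18 locus BnaC07g43490D at 20.9, followed by BnaC08g27340D (WRKY70) at 20.6, BnaC01g06900D (WRKY11) at 17.8 and BnaC03g21360D (WRKY33) at 17.1. When loci were summed by their Arabidopsis match, WRKY70 averaged 55.8 scaled FPKM, WRKY18 49.6, WRKY21 48.5, WRKY11 45.7 and WRKY33 42.6. All 12 IIa loci, the group of WRKY18 and WRKY40, were tested, as were 27 of 30 IId loci, whereas 9 of 38 IIb loci passed the minimum. The loci named WRKY10 (15 loci), WRKY61 (11), WRKY72 (8) and WRKY55 (7) all stayed under it. C-subgenome loci carried more of the signal in every library, with an A share of the summed family level between 37.5 and 41.6%.

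Summed over all 301 loci, the family reached 653 and 1352 scaled FPKM in the UV-B libraries, 776 and 900 under herbivory, 424 and 391 with MeJA, 557 and 422 with ethanol and UN65, 345 and 574 with water, and 516 and 863 in white light. The 2 UV-B libraries and the 2 white light libraries overlapped. The MeJA libraries lay below both white light libraries but overlapped their own controls, water and ethanol and UN65. Over the 6 groups together, limma's moderated F test passed 15 of the 171 loci at an adjusted p under 0.05, or 8.77%, beside 8.27% of all loci tested. These 15 were 3 WRKY18 loci, 2 each of WRKY4, WRKY26, WRKY40, WRKY46 and WRKY48, and 1 each of WRKY22 and WRKY33. The heat map of summed genes shows the same unevenness, with whole blocks of group III genes set apart in single libraries.

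**Figure D1:**
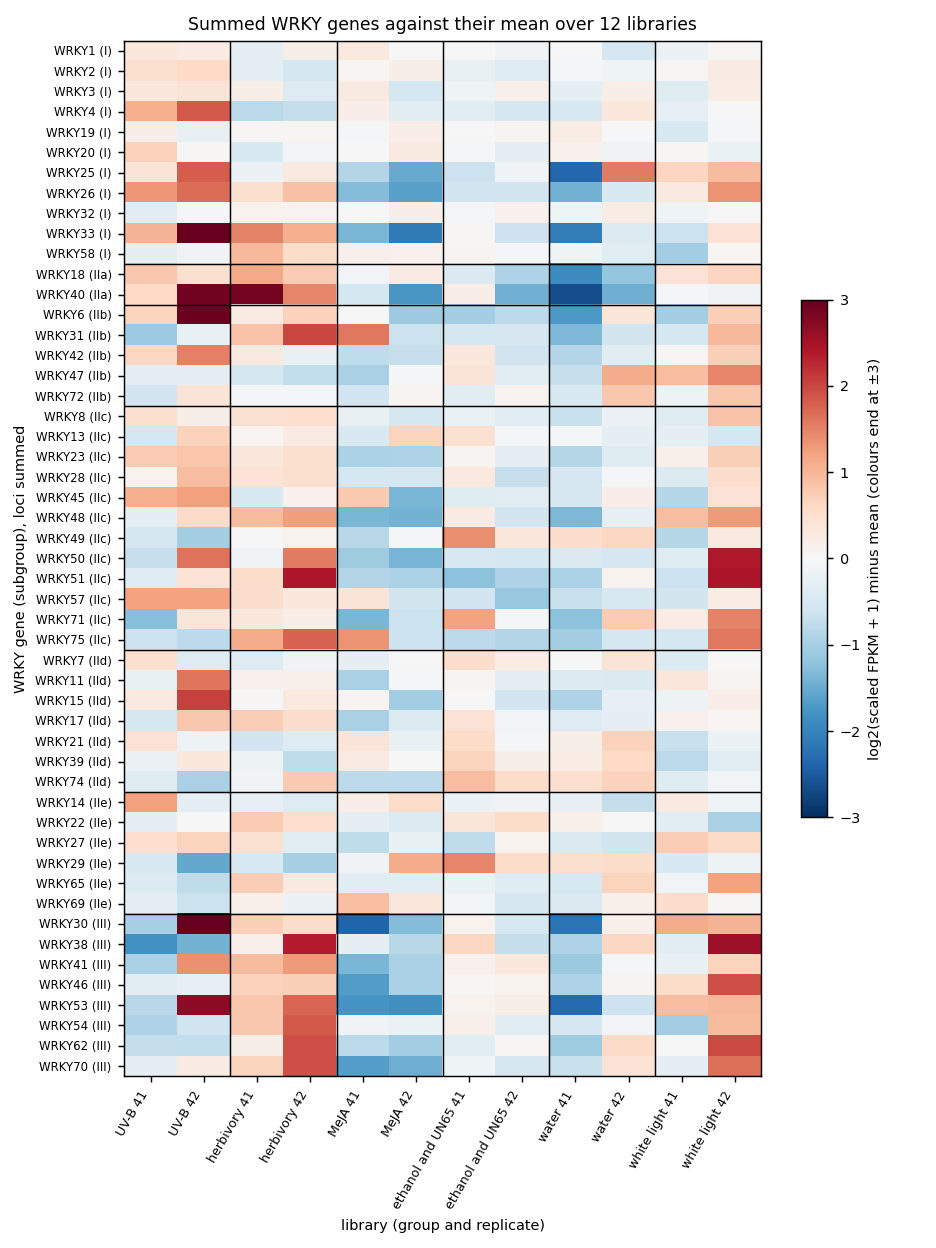
Each row is an Arabidopsis WRKY gene with its B. napus loci summed, each column a library, and colour gives log2(scaled FPKM + 1) minus the gene's mean over the 12 libraries. WRKY33, WRKY40 and WRKY53 were high in UV-B replicate 42 and low in water replicate 41, and WRKY38, WRKY62 and WRKY70 were high in replicate 42 of both herbivory and white light.

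UV-B was set against white light to ask which WRKY loci differed between these groups. By the study's methods, the UV-B plants stood on a lower shelf of the same cabinet. Those methods state no white light level for the UV-B plants of this experiment. Shelf and any difference in white light cannot be told apart from UV-B here. WRKY4 loci of both subgenomes and 1 WRKY57 locus rose, and 1 locus each of WRKY18 and WRKY69 fell. Called loci thus numbered 3 higher and 2 lower of 171, which is 2.92%, beside 3.54% of all loci, with 2.66% called higher and 0.873% called lower. Before adjustment, 22 loci were higher at p under 0.05, which is 12.9% beside 12.2% of all loci, and 9 were lower, which is 5.26% beside 9.69%. The median log2 fold change of the WRKY loci was 0.08, beside -0.0031 over all loci. With libraries scaled to equal totals the medians were -0.02 for the WRKY loci and -0.0683 for all loci.

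WRKY4 is a group I factor that in Arabidopsis acts in resistance to necrotrophic fungi. Its locus BnaA09g45940D (chromosome A09, 31305028 to 31307313 as the tables give it) had 15.5 and 28.2 scaled FPKM in the UV-B libraries, against 5.37 and 3.4 in white light, and between 2.65 and 6.36 in the other 8 libraries. The UV-B libraries lay above every other library. The log2 fold change was 2.05 ± 0.34 (SE, n = 2 each), with a limma adjusted p of 0.022. The C locus BnaC08g40010D (C08, 35417014 to 35419134) had 11.2 and 22.5 in the UV-B libraries, against 3.37 and 3.08 in white light, and again no other library reached the UV-B values, the highest being water replicate 42 at 6.34. It rose by 2.00 ± 0.41 on the log2 scale (limma adjusted p = 0.0367). All 6 WRKY4 loci summed to 36.1 and 62.9 scaled FPKM under UV-B, against 14.1 and 16.6 in white light, and WRKY4 was the only WRKY gene called in this comparison when the whole table was summed by Arabidopsis gene and refitted, with a log2 fold change of 1.58 ± 0.34 (limma adjusted p = 0.0349).

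WRKY57, which in Arabidopsis acts in drought tolerance and in jasmonate-induced leaf senescence, was called at BnaA07g27840D. It had 1.62 and 2.65 scaled FPKM under UV-B, against 0 and 0.497 in white light, with 0.464 the highest of the other 8 libraries. The groups did not overlap, though all values were low. The log2 fold change was 1.34 ± 0.29, with a limma adjusted p of 0.0444. Among the other copies, BnaC06g30480D had 2.88 and 2.21 under UV-B, against 0.62 and 1.61 in white light, and it was not called.

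WRKY33 is required in Arabidopsis for resistance to the grey mould Botrytis and for the synthesis of the phytoalexin camalexin. Its strongest locus, BnaC03g21360D (C03, 11540402 to 11542689), had 25.5 and 85.1 scaled FPKM under UV-B, against 7.55 and 11.3 in white light. The UV-B libraries lay above the white light libraries, with a wide gap between the 2 UV-B values. The log2 fold change of 2.22 ± 0.58 was the largest rise of the family under UV-B and missed the threshold (limma adjusted p = 0.0709). All 6 tested WRKY33 loci had a positive log2 fold change, between 1.44 and 2.22. None was called, and 5 of them had an unadjusted p under 0.05. These loci had a Pearson's r of 0.94 to 0.99 with each other over the 12 libraries and may share reads, so they are not separate evidence. Without UV-B replicate 42 the log2 fold change was 1.37 at BnaC03g21360D and 0.49 at BnaA05g34850D.

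WRKY26, which with WRKY25 and WRKY33 acts in Arabidopsis heat tolerance, had 7.42 and 11.2 scaled FPKM at BnaC02g01720D under UV-B, against 2.91 and 6.75 in white light. The log2 fold change was 0.88 ± 0.39 (limma adjusted p = 0.224). Its other locus, BnaAnng01980D, had 10.4 and 12.2 under UV-B, against 5.34 and 11.5 in white light, so that the groups overlapped. Both WRKY26 loci passed the F test over the 6 groups (limma adjusted p = 0.0229 and 0.0256), and the sprayed plants held at most 2.93 scaled FPKM of either.

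The falling loci under UV-B were WRKY69 and WRKY18. The WRKY69 locus BnaC04g23420D, a group IIe gene, had 1.13 and 0.784 scaled FPKM under UV-B, against 3.65 and 2.78 in white light, and fell by 1.11 ± 0.25 on the log2 scale (limma adjusted p = 0.0467). WRKY18 is described below with its other copies. By subgroup, 35 of 44 group I loci were higher under UV-B, with a median log2 fold change of 0.36, and 20 of 27 IId loci, with a median of 0.29. The largest median was that of group IIa at 1.01, with 8 of 12 loci higher, 4 lower and 1 called lower. In group IIe 13 of 15 loci were lower, with a median of -0.19. In group III 21 of 28 loci were lower, with a median of -0.73, and none was called. The summed group III level, 55.5 and 236 scaled FPKM under UV-B, overlapped that in white light, 91.6 and 267. The WRKY46 locus BnaC04g21660D of group III had 0.607 and 0.671 under UV-B, against 2.7 and 2.61 in white light, a log2 fold change of -1.16 ± 0.27 just outside the threshold (limma adjusted p = 0.0508).

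The UV-B libraries differed strongly from each other. WRKY30, a stress-induced group III gene, summed to 2.12 and 81.2 scaled FPKM under UV-B, against 12.6 and 11.8 in white light, and WRKY53, a regulator of leaf senescence, to 6.23 and 81.2, against 23.3 and 24.4. Replicate 41 thus lay below white light and replicate 42 above it for both genes, and neither was called. Without UV-B replicate 41, 13 WRKY loci were called, and without UV-B replicate 42 or either white light library 0 were, while leaving out a library of another group left 1 to 3 calls. Of the 5 called loci, BnaA09g45940D kept its call in 15 of 20 alternative settings, BnaC08g40010D in 7 of 20, BnaC03g67380D in 3 of 20, BnaA07g27840D in 2 of 19 and BnaC04g23420D in 1 of 20.

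**Figure D2:**
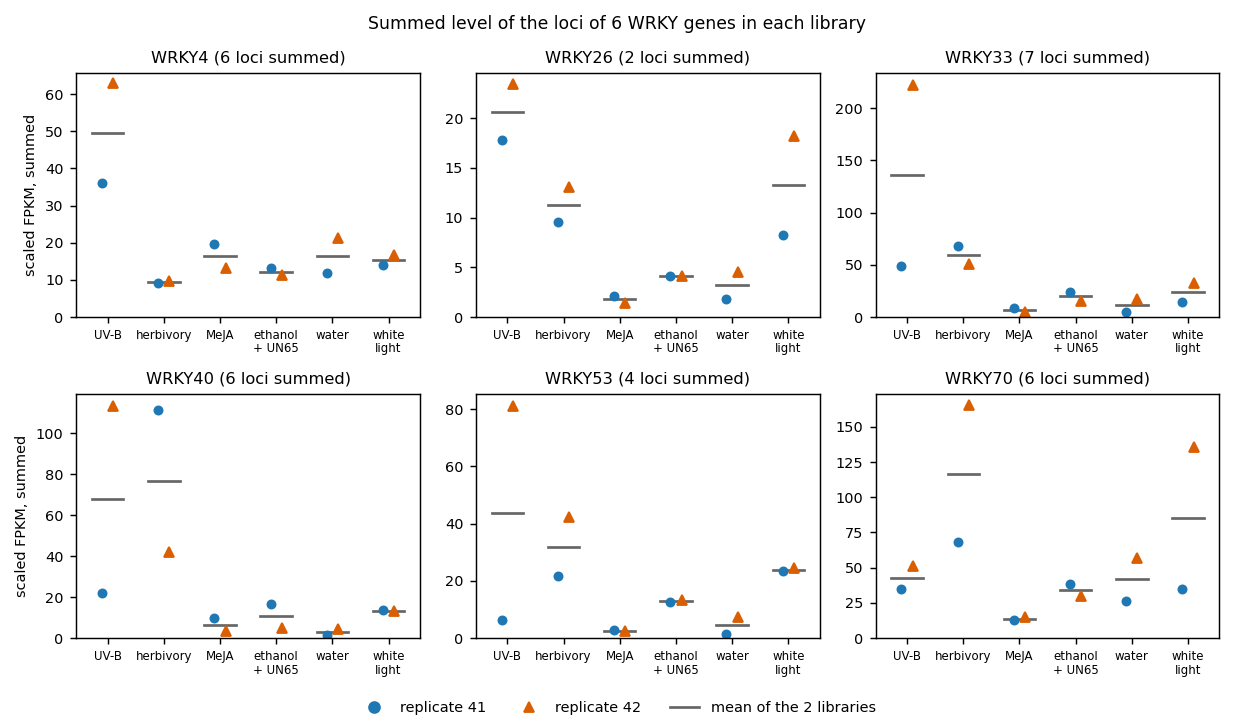
Summed scaled FPKM of 6 WRKY genes (y axes, linear, from 0) in each library, with circles for replicate 41, triangles for replicate 42 and bars for the group mean. WRKY4 was higher in both UV-B libraries (36.1 and 62.9) than anywhere else. WRKY53 was high in UV-B replicate 42 (81.2) and low in replicate 41 (6.23). WRKY33 (48.6 and 223) and WRKY40 (22.2 and 113) lay above both white light libraries in both UV-B replicates, and far higher in replicate 42.

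Herbivory was compared with water, which is the control of the MeJA plants and was kept in the same dim light, and with white light. The water plants were also sprayed and covered with a propagator, while the herbivory plants stood in mesh cages, and these differences cannot be told apart from herbivory here. Against water, 2 WRKY18 and 2 WRKY40 loci rose and none fell. These 4 of 171 make 2.34%, all higher, beside 1.14% of all loci called and 0.694% called higher. At an unadjusted p under 0.05, 44 loci were higher, which is 25.7% beside 9.68% of all loci, and 7 were lower, which is 4.09% beside 8.74%. In all 116 of the 171 loci were higher under herbivory, with a median log2 fold change of 0.40, beside 0.0187 over all loci.

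WRKY40 and WRKY18 are group IIa factors that bind to each other in Arabidopsis and restrain basal defence. The WRKY40 locus BnaC06g40170D (C06, 36908724 to 36910577) had 48.9 and 17.7 scaled FPKM under herbivory, against 0.22 and 1.42 with water and 7.03 and 7.54 in white light. Both herbivory libraries lay above all control libraries. The log2 fold change against water was 4.15 ± 0.77, the largest in the family (limma adjusted p = 0.0458). BnaA07g20110D, a weaker WRKY40 locus on A07 (15879567 to 15881058), had 6.32 and 3.23 under herbivory, against 0 and 0.17 with water and 0.615 and 0.123 in white light, and did not exceed 0.615 in any library of another group. It rose by 2.36 ± 0.35 against water (limma adjusted p = 0.0321), and against white light its log2 fold change of 2.05 ± 0.35 had the smallest p of the family without passing the threshold (limma adjusted p = 0.194).

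Of the remaining WRKY40 loci, BnaC02g26030D had 28.6 and 9.89 scaled FPKM under herbivory, against 1.08 and 2.06 with water, and BnaAnng23990D had 23.4 and 9.32, against 0.149 and 0.757. Their herbivory values did not overlap those with water, and their log2 fold changes of 2.83 ± 0.88 and 3.48 ± 1.01 were not called (limma adjusted p = 0.135 and 0.117). UV-B replicate 42 held 41.8 and 22.7 of these loci, and UV-B replicate 41 held 4.12 and 1.67. BnaA07g35260D was listed at 0 in 10 libraries and stood at 8.22 in UV-B replicate 41 and 3.25 in ethanol and UN65 replicate 41, the libraries without read steps.

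The WRKY18 locus BnaAnng32610D had 21.7 and 17.8 scaled FPKM under herbivory, against 0.472 and 2.13 with water, and rose by 3.27 ± 0.38 on the log2 scale (limma adjusted p = 0.0246). BnaC07g43490D (C07, 42526219 to 42527527) had 45.9 and 25.3 under herbivory, against 1.45 and 4.83 with water, and rose by 3.22 ± 0.46 (limma adjusted p = 0.0309). The groups did not overlap at either locus. Neither was called against white light, where they stood at 10.2 and 12.2, and at 17.7 and 14.4.

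Against water, 27 of 28 group III loci were higher under herbivory, with a median log2 fold change of 1.25, as were 10 of 12 group IIa loci (median 2.14), 8 of 9 group IIb loci (median 0.91) and 30 of 36 group IIc loci (median 0.70). No locus of groups III, IIb or IIc was called. Against white light, 15 of 28 group III loci were higher under herbivory (median 0.19), and 23 of 36 group IIc loci (median 0.20). The same comparison had 8 of 12 group IIa loci higher (median 1.13) and 5 of 9 group IIb loci (median 0.53). The group III rise was thus seen against water and not against white light. WRKY53, by its locus BnaC07g38550D, had 6.41 and 14.8 scaled FPKM under herbivory, against 0.367 and 1.78 with water, a log2 fold change of 2.47 ± 0.66 (limma adjusted p = 0.0994). WRKY70, which in Arabidopsis links salicylic acid to the repression of jasmonate responses, summed to 68.2 and 165 under herbivory, against 26.5 and 57.1 with water and 34.8 and 136 in white light. The summed herbivory values thus lay above both water libraries but overlapped white light. WRKY48, a negative regulator of basal defence in Arabidopsis, had 2.85 and 4.7 under herbivory at BnaC07g27240D, against 0.205 and 0.696 with water (log2 fold change 1.71 ± 0.37, limma adjusted p = 0.0637). WRKY75, induced by phosphate starvation in Arabidopsis, had 3.4 and 1.99 at BnaC09g44020D, against 0 and 0.426 (log2 fold change 1.60 ± 0.35, limma adjusted p = 0.0655).

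Against white light, herbivory gave 0 called WRKY loci, beside 0.0241% of all loci. At an unadjusted p under 0.05, limma found 15 loci higher, which is 8.77% beside 4.07%, and 4 lower, which is 2.34% beside 5.03%. The 5 smallest p belonged to BnaA07g20110D, then BnaC06g19560D (WRKY40), BnaCnng02000D (WRKY22), BnaA03g27660D (WRKY58) and BnaA09g00350D (WRKY47). WRKY22, which in Arabidopsis lies downstream of the flagellin MAP kinase cascade, had 3.97 and 3.79 scaled FPKM at BnaCnng02000D under herbivory, against 1.77 and 0.749 in white light (log2 fold change 1.15 ± 0.30, limma adjusted p = 0.341). The WRKY58 locus BnaA03g27660D had 3.38 and 2.26, against 0.0883 and 1.33, while the WRKY47 locus BnaA09g00350D had 1.6 and 1.57, against 6.44 and 7.99.

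Single libraries decided the herbivory counts. Without herbivory replicate 42, 2 loci were called against white light. Against water, 0 loci were called without herbivory replicate 41 or water replicate 41 and 1 without water replicate 42, while 8 were called without either UV-B library, which enters only through the shared estimate of spread. The WRKY18 loci BnaAnng32610D and BnaC07g43490D kept their calls against water in 17 and 15 of 20 settings, and the WRKY40 loci BnaA07g20110D and BnaC06g40170D in 13 of 19 and 7 of 20.

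**Figure D3:**
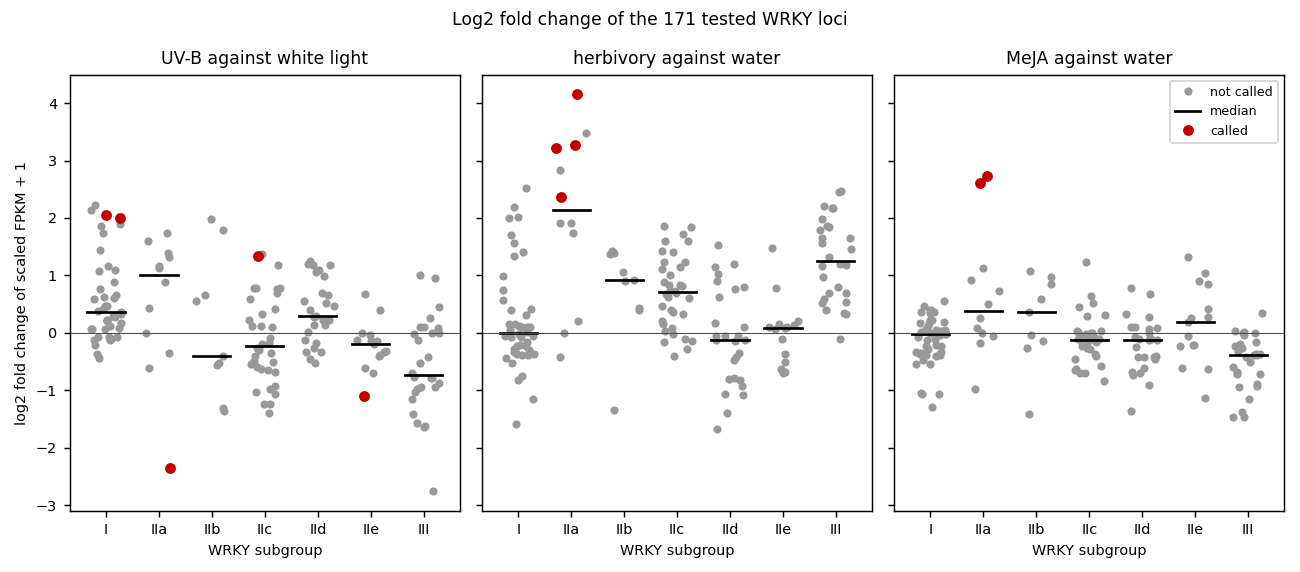
Log2 fold change (y axis) of each of the 171 tested WRKY loci by subgroup (x axis) for UV-B against white light, herbivory against water and MeJA against water, with called loci in red and subgroup medians as black bars. Group III lay low in UV-B against white light (median -0.73) and high in herbivory against water (median 1.25). These medians have different controls, and in herbivory against white light, not drawn here, the group III median was 0.19. The summed group III levels of the UV-B and white light libraries overlapped. The calls in herbivory and MeJA against water were in group IIa. In comparisons not drawn, the group IIa median was 1.13 in herbivory against white light and 0.06 in MeJA against ethanol and UN65. It was 0.95 in ethanol and UN65 against water.

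MeJA was compared with water and with its own solvent, ethanol and UN65. Against water, the WRKY18 loci BnaAnng32610D and BnaC07g43490D rose and nothing fell, 2 of 171 loci or 1.17%, beside 0.465% of all loci called and 0.451% called higher. At an unadjusted p under 0.05, 4 loci were higher, which is 2.34% beside 5.02%, and 7 were lower, which is 4.09% beside 2.21%. The median log2 fold change was -0.12, with 105 loci lower and 61 higher.

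BnaAnng32610D had 13.8 and 10.7 scaled FPKM with MeJA, against 0.472 and 2.13 with water (log2 fold change 2.62 ± 0.38, limma adjusted p = 0.0336). BnaC07g43490D had 21.3 and 27.1 with MeJA, against 1.45 and 4.83 with water (2.73 ± 0.46 on the log2 scale, limma adjusted p = 0.0476). The ethanol and UN65 libraries lay in between, at 4.36 and 2.96 for BnaAnng32610D and at 10.2 and 7.1 for BnaC07g43490D. Against that solvent the log2 fold changes were 1.51 ± 0.38 and 1.40 ± 0.46, neither of them called (limma adjusted p = 0.27 and 0.382).

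In MeJA against ethanol and UN65, limma called 0 WRKY loci, beside 0.00402% of all loci. At an unadjusted p under 0.05, 5 were higher, which is 2.92% beside 4.68%, and 13 were lower, which is 7.6% beside 4.15%. Of the group III loci, 26 of 28 were lower, with a median log2 fold change of -0.91. WRKY70 summed to 12.9 and 14.7 scaled FPKM with MeJA, against 38.6 and 29.8 with ethanol and UN65 and 26.5 and 57.1 with water, so that both MeJA libraries lay under all 4 control libraries. WRKY46, by BnaC04g21660D, had 0.183 and 0.0937 with MeJA, against 1.69 and 1.28 with the solvent (log2 fold change -1.12 ± 0.27, limma adjusted p = 0.249). The locus with the smallest p was the WRKY74 locus BnaA02g31030D, of the calmodulin-binding group IId, with 1.43 and 1.2 under MeJA, against 7.87 and 4.93 with ethanol and UN65 and 4.77 and 5.09 with water (log2 fold change against the solvent -1.65 ± 0.35, limma adjusted p = 0.225). In the other direction, the WRKY69 locus BnaA09g55250D had 6.22 and 3.68, against 1.83 and 1.35 with the solvent and 0.889 and 1.84 with water, and was not called in either.

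In MeJA against water, BnaAnng32610D kept its call in 6 of 20 settings and BnaC07g43490D in 2 of 20, and leaving out any single library left at most 1 call, which remained only without water replicate 42 or a white light library.

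The solvent itself was tested as ethanol and UN65 against water. No WRKY locus was called, beside 0.00402% of all loci, and at an unadjusted p under 0.05 limma found 4 loci higher, which is 2.34% beside 1.86%, and 0 lower, beside 1.12%. These 4 were BnaA09g00120D (WRKY22), BnaA09g00350D (WRKY47) and the WRKY18 loci BnaC07g43490D and BnaAnng32610D. Of the group IIa loci, 10 of 12 were higher with ethanol and UN65 than with water, with a median log2 fold change of 0.95. The WRKY22 locus had 2.28 and 4.25 scaled FPKM with ethanol and UN65, against 0 and 1.14 with water, and the WRKY47 locus 2.69 and 3.82, against 0 and 0.906. Both lie at the start of chromosome A09, where their tested neighbours, up to 25 on each side, were also low with water, with a median log2 deviation from the median library of -2.85 and -0.77 around WRKY22 and of -2.66 and -0.77 around WRKY47 in water replicates 41 and 42. The part of this stretch in the values of these loci was not tested.

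Water was compared with white light, a comparison in which the spray and the lower light cannot be told apart. The WRKY18 locus BnaAnng32610D fell, 1 of 171 loci or 0.585%, beside 1.26% of all loci called and 0.732% called lower. At an unadjusted p under 0.05, 19 loci were lower, which is 11.1% beside 10.8%, and 7 were higher, which is 4.09% beside 9.47%. In all 125 loci were lower with water, with a median log2 fold change of -0.44, beside -0.0351 over all loci, and all 28 group III loci were lower, with a median of -0.99. In group IIa 10 of 12 loci were lower, with a median of -0.95.

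BnaAnng32610D had 0.472 and 2.13 scaled FPKM with water, against 10.2 and 12.2 in white light, and fell by 2.50 ± 0.38 on the log2 scale (limma adjusted p = 0.0328). BnaC07g43490D had 1.45 and 4.83, against 17.7 and 14.4, just outside the threshold (log2 fold change -2.17 ± 0.46, limma adjusted p = 0.056). The WRKY46 locus BnaC04g01210D had 0 and 0.144 with water, against 2.34 and 8.05 in white light (limma adjusted p = 0.053). It lies in a stretch of C04 whose 50 tested neighbours had medians of -1.46 and -1.57 in the water libraries, -1.59 and -1.52 with MeJA and -1.45 in ethanol and UN65 replicate 42, the libraries in which the locus was at most 0.388, and the part of the stretch in its values was not tested. Without either water library or either white light library no WRKY locus was called, while leaving out a MeJA or a UV-B library gave 3 or 4 calls.

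Low stretches touched 12 of the 147 WRKY loci placed on a chromosome. On C01, 7 loci, among them BnaC01g06660D (WRKY18), BnaC01g06900D (WRKY11) and BnaC01g15640D (WRKY53), had neighbours at medians from -1.30 to -1.90 in herbivory replicate 41. On A09, BnaA09g05000D (WRKY30) and BnaA09g07010D (WRKY51) had neighbours at medians between -1.72 and -2.88 in both water libraries and in MeJA replicate 41. No called locus lies among the 12, but the 24 tested loci on unplaced sequence, BnaAnng32610D among them, could not be checked. The F test passed 14 loci when they were left out.

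The 6 tested WRKY18 loci did not move together. BnaC07g43490D and BnaAnng32610D had a Pearson's r of 0.94 over the 12 libraries, whereas BnaC03g67380D had an r of 0.09 with BnaC07g43490D and of 0.25 with BnaAnng32610D. BnaC03g67380D (C03, 57062410 to 57064382) had 2.32 and 3.77 scaled FPKM under UV-B, against 15.4 and 24.4 in white light, and fell by 2.36 ± 0.54 on the log2 scale (limma adjusted p = 0.0498). Under the same comparison BnaC07g43490D had 45.4 and 30.4 with UV-B, against 17.7 and 14.4 in white light, a log2 fold change of 1.17 ± 0.46 (limma adjusted p = 0.179).

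In MeJA against ethanol and UN65 these copies went in opposite directions, and neither was called. BnaC03g67380D had 0.965 and 2.47 scaled FPKM with MeJA, against 11.7 and 8.41 with ethanol and UN65 (log2 fold change -2.06 ± 0.54, limma adjusted p = 0.286), where BnaC07g43490D had 21.3 and 27.1, against 10.2 and 7.1. The MeJA values of BnaC03g67380D overlapped those with water, 1.8 and 8.38 (log2 fold change -0.97 ± 0.54, limma adjusted p = 0.855). Under herbivory BnaC03g67380D had 17.5 and 18.9, against 1.8 and 8.38 with water, in the direction of BnaC07g43490D and BnaAnng32610D. Of the remaining copies, BnaC01g06660D stood at 12.7 and 14.4 in white light and at most at 1.23 with water or the solvent, BnaC09g05770D was lowest in white light at 0.31 and 0.5, and BnaA01g05060D did not exceed 2.01 outside UV-B replicate 41. The difference between copies in their response was not tested. Summed over its 6 loci, WRKY18 had 75.0 and 59.5 under UV-B, 93.3 and 72.1 under herbivory, 39.4 and 50.5 with MeJA, 31.1 and 21.8 with ethanol and UN65, 10.5 and 18.2 with water, and 57.3 and 66.3 in white light. As a sum it was called higher under herbivory than with water (log2 fold change 2.48 ± 0.31, limma adjusted p = 0.0289) and lower with water than in white light (-2.08 ± 0.31, limma adjusted p = 0.0313).

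**Figure D4:**
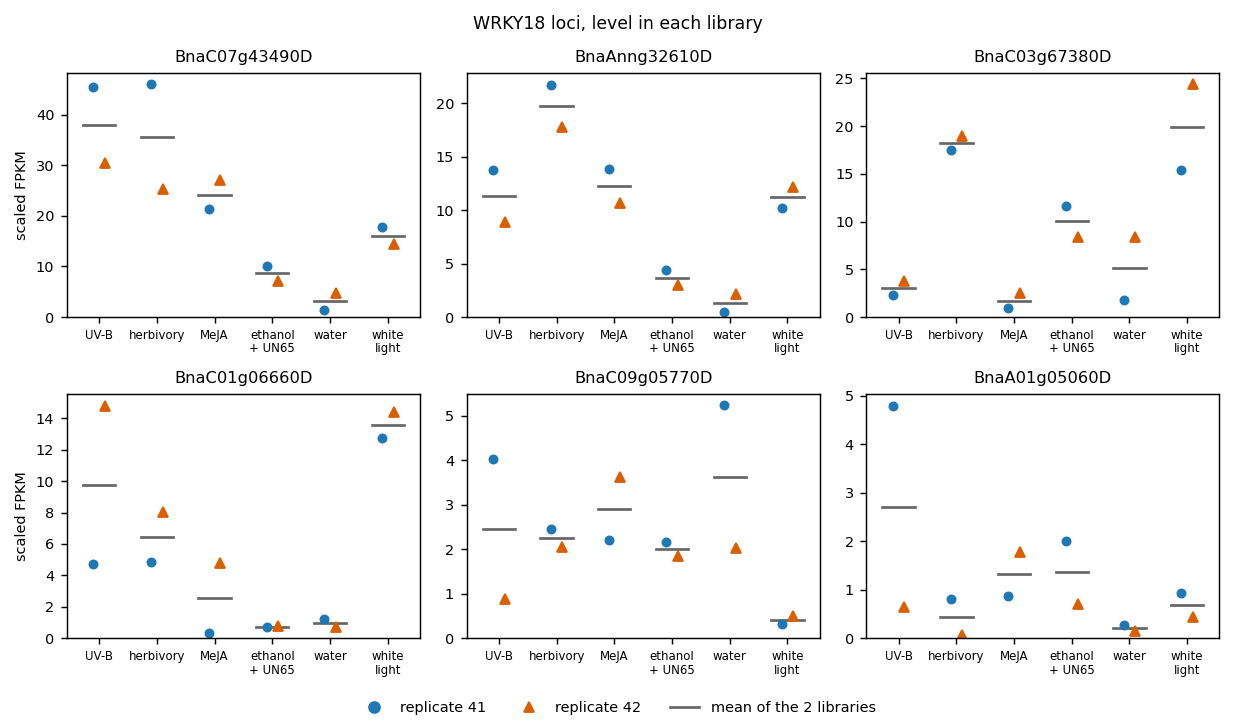
Scaled FPKM (y axes, linear, from 0) of the 6 tested WRKY18 loci in each library, with circles for replicate 41, triangles for replicate 42 and bars for the group mean. BnaC07g43490D and BnaAnng32610D were lowest with water, and BnaC03g67380D was low with UV-B (2.32 and 3.77) and MeJA (0.965 and 2.47).

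Over the family, pairs of loci matched to the same WRKY gene had a median r of 0.67 over the 12 libraries (280 pairs), and pairs from different WRKY genes a median of 0.14 (14255 pairs). These pairs share libraries and, for close copies, possibly reads, so the values are descriptions. The 6 WRKY33 loci were the most alike, with r from 0.94 to 0.99, and WRKY53 (median 0.93), WRKY30, WRKY31 and WRKY62 (0.9 each) came close. At the other end were WRKY8, with a median of -0.42 over 3 loci, WRKY19, with -0.1, WRKY3, with r from -0.44 to 0.46 around a median of 0, and WRKY32, with 0.05. WRKY18 had a median of 0.25 with a range of -0.59 to 0.94.

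**Figure D5:**
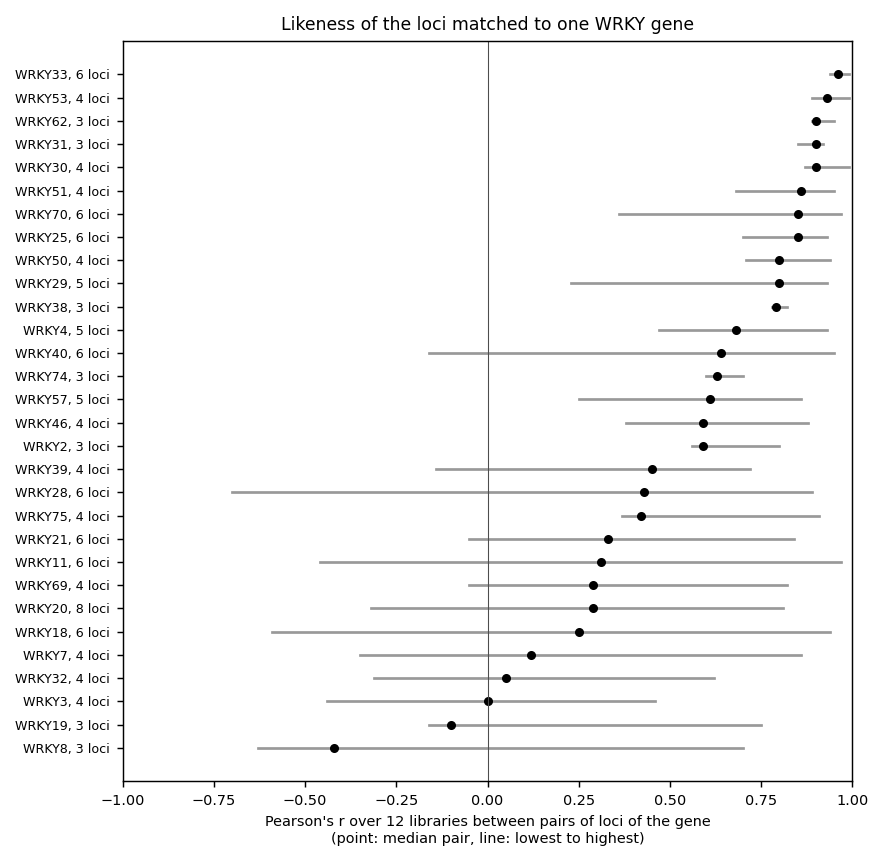
Pearson's r over the 12 libraries between pairs of loci matched to the same WRKY gene (x axis), with the median pair as a point and the lowest to highest pair as a line, for the 30 genes with 3 or more tested loci. WRKY33 (0.94 to 0.99) and WRKY53 (0.89 to 0.99) had alike copies, and WRKY18 ranged from -0.59 to 0.94.

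Group III levels also followed the replicate. The summed group III level was 55.5 and 236 scaled FPKM in UV-B replicates 41 and 42, 145 and 317 under herbivory, 32.9 and 35.2 with MeJA, 88.0 and 70.1 with ethanol and UN65, 42.1 and 101 with water, and 91.6 and 267 in white light. In white light 23 of 28 group III loci were higher in replicate 42, with a median log2 difference of 1.22, where the median over all tested loci was 0.017. This gap was not confined to group III. In white light 123 of all 171 WRKY loci were higher in replicate 42 (median 0.416), among them 33 of 36 IIc and 9 of 9 IIb loci, while 12 of 15 IIe loci were lower. With water 130 of the 171 were higher in replicate 42 (median 0.412). Group III was also higher in replicate 42 at 26 loci with water, 24 under herbivory and 22 under UV-B, whereas 19 of 28 were lower in it with ethanol and UN65. WRKY38, which in Arabidopsis acts with WRKY62 as a repressor of basal defence, summed to 3.07 and 29.6 in the white light replicates and to 4.68 and 25.0 under herbivory.

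Genes that act with the family were read from lists of Arabidopsis genes. Of 32 loci of the MAP kinase cascade upstream of WRKY factors, none was called in any comparison, and against white light 27 of 32 were lower with water, with a median log2 fold change of -0.43. MKK9, a MAP kinase kinase, averaged 40.6 scaled FPKM with MeJA at BnaC06g23550D, against 10.3 with ethanol and UN65 and 9.01 with water, and was not called (limma adjusted p = 0.291 and 0.162). Of 48 loci of VQ proteins, which bind WRKY factors, 1 was called higher in herbivory against water, beside 0.694% of all loci. It was BnaA09g42280D (VQ12), which averaged 6.49 under herbivory, against 0.547 with water (log2 fold change 2.35 ± 0.39, limma adjusted p = 0.0389). BnaA05g02040D (SIB2, a VQ partner of WRKY33) averaged 6.31 under UV-B, against 26.5 in white light, and was not called (limma adjusted p = 0.0923).

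Of 30 loci of genes reported as WRKY targets, BnaC08g12110D (NPR1, the salicylic acid co-activator) averaged 20.4 scaled FPKM under UV-B, against 5.41 in white light, and rose by 1.68 ± 0.33 (limma adjusted p = 0.0349). It was the only target locus called under UV-B, where 2.66% of all loci were called higher. BnaC03g45470D (PR1, a salicylic acid marker) averaged 65.9 under UV-B and 31.5 with water, against 1136 in white light, and was not called in either comparison (limma adjusted p = 0.0911 and 0.101). BnaA09g04040D, a locus of CBP60g, an activator of salicylic acid synthesis, averaged 5.32 under herbivory, was listed at 0 in both water libraries and averaged 7.35 in white light, and it was called higher in herbivory against water, beside 0.694% of all loci, and lower in water against white light, beside 0.732%. It lies in the A09 stretch, with neighbours at medians of -2.06 and -2.03 in the water libraries, and the part of the stretch was not tested. BnaC03g17080D (CYP71A13, an enzyme of camalexin synthesis) averaged 4.62 under herbivory, against 0.859 with water and 0.0424 in white light, and was not called.

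Rapid stress regulators outside the family were measured at 43 loci, of which 3 were called higher under UV-B and 5 in herbivory against water, beside 2.66% and 0.694% of all loci, with median log2 fold changes of 0.97 and 1.31. Under UV-B these were 3 loci of the zinc finger gene ZAT12, led by BnaA10g12780D with a mean of 127 scaled FPKM, against 5.36 in white light (log2 fold change 3.79 ± 0.70, limma adjusted p = 0.0291). Under herbivory they were 2 loci each of ZAT10 and ANAC019 and 1 of ERF109, led by BnaC06g05910D (ANAC019) with 51.4, against 2.82 with water (log2 fold change 4.19 ± 0.65, limma adjusted p = 0.0343). No such locus was called in either MeJA comparison, where ZAT10 at BnaA09g27780D averaged 27.4 with MeJA, against 2.71 with ethanol and UN65 and 2.45 with water (limma adjusted p = 0.249 and 0.123).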

How the data were processed

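RNA-Seq was deposited for 12 labelled libraries in 6 groups of 2. Per the labels, the submitters' processing used TopHat2 and Cufflinks 2.2.1, and their notes name the Arabidopsis build TAIR10. The authors deposited a matrix under a name for read counts whose values are FPKM and not counts, so no count test was run. Its 2 UV-B columns average to the UV-B group FPKM of another deposited table at all 101040 loci (relative tolerance 0.0001). Fold changes and p-values of the authors' own comparisons, and 22 library columns that match no label, were not used.

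Libraries were scaled by the median, over 43787 loci, of their ratios to the mean of all libraries, and limma 3.58.1 (R 4.3.3) fitted log2(FPKM + 1) with a trended prior over 12 libraries and 49701 loci with at least 1 FPKM in 2 libraries. The step was tested on simulated data. Read depth is unknown, which limits precision at low values. Genomic positions are those of the tables, which name no build, and no sequences were used. The members, lists and settings were chosen with earlier results of these data known. Named loci were the 5 largest called rises and falls of each comparison, the 5 smallest p where fewer were called, the 10 smallest F test p, the 10 highest means, and loci of WRKY6, WRKY11, WRKY18, WRKY22, WRKY25, WRKY33, WRKY40, WRKY46, WRKY53, WRKY70 and WRKY75. Any other locus named was chosen after its values were seen. Alternatives changed the minimum, pseudocount, scaling, groups fitted, replicate block, fold minimum and libraries, or summed loci by Arabidopsis gene. Loci in low stretches were left out as an alternative chosen after seeing the data. Group III and IIa sums include loci under the minimum.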

Additional observations from a re-analysis of the deposited data

How the results depend on the processing

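In all 2031 alternative values of the named loci, none reversed direction while called, 1869 stayed on the same side of the threshold, 137 lost a call and 25 gained one. Most of these values belong to named loci that were not called above, for which staying means remaining uncalled. The 137 losses all fall on called loci, which kept their calls in between 1 of 20 and 17 of 20 settings. In UV-B against white light, where 5 loci were called, no filter and the compared groups alone gave 0, a minimum in 4 libraries 3, a pseudocount of 0.1 gave 1 and of 0.5 gave 2, values as deposited 1, columns of equal totals 1 and loci summed by Arabidopsis gene 1. In herbivory against water, where 4 were called, no filter gave 1, a pseudocount of 0.1 gave 2, the compared groups alone 0 and summed loci 1. In MeJA against water, where 2 were called, the count was 0 with no filter, a pseudocount of 0.1, columns of equal totals, the compared groups alone and summed loci, and 1 with a pseudocount of 0.5. In water against white light, where 1 was called, it was 0 with no filter, columns of equal totals and the compared groups alone, 2 with a minimum in 4 libraries or a pseudocount of 0.5, and 3 with values as deposited. The number that differed over the 6 groups was 0 with no filter. The median log2 fold change in herbivory against water was 0.076 with no filter and 0.81 with a pseudocount of 0.1, and in MeJA against ethanol and UN65 it was 0 and -0.37.

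Leaving out single libraries moved the number of calls between 0 and 13 for UV-B against white light, 0 and 2 for herbivory against white light, 0 and 8 for herbivory against water, 0 and 1 for MeJA against water and 0 and 4 for water against white light, and it stayed at 0 for MeJA against ethanol and UN65 and for ethanol and UN65 against water. The medians then lay between -0.06 and 0.28, -0.17 and 0.33, 0.26 and 0.71, -0.29 and 0.08, and -0.74 and -0.12 in the same order, between -0.26 and -0.09 for MeJA against ethanol and UN65, and between -0.02 and 0.29 for ethanol and UN65 against water. The number that differed over the 6 groups lay between 3 and 29. Where a left-out library leaves its group with 1 library, that library is assumed to vary like the other groups. With the replicate block, 3 loci were called in UV-B against white light, 0 in MeJA against water and 2 in water against white light. The numbers 41 and 42 were not taken as pairs, since same-numbered libraries deviated together, with r over 0.1, for only 4 of the 15 possible group pairs (r between -0.372 and 0.409). Scaling moved the median of all loci by over 0.1 in herbivory against white light (0.13 as deposited, 0.29 with equal totals) and water against white light (0.18 and 0.17), and, with equal totals, in MeJA against ethanol and UN65 (-0.19). The WRKY medians were then 0.18 and 0.31, -0.26 and -0.27, and -0.30 in the same order. The causes of these changes were not tested, except that the filter and the groups fitted set how many loci and libraries enter.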
